A study of Mus musculus with 4 samples.

Results

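The proteasome genes of the mouse testis were compared between animals mutant for Lrrc8a, a subunit gene of the volume-regulated anion channel, and wild-type animals. The members were the symbols of the deposited table that begin with Psm, carry a letter from a to g and end in a number, which gave 48 of 24420 symbols. They cover the subunits of the 20S core and the 19S cap, the assembly chaperones, the activators and a single inhibitor. The mutant group (MUT) held 2 libraries and the wild-type group (WT) held 2, from FVB testis. The sources used here give neither the kind of Lrrc8a mutation nor the age of the animals. No label ties a library to an animal, so p-values measure the spread between libraries only, and that spread may be technical. The labels name germ cells, yet markers of other testis cells were present: 6 Leydig markers summed to 1057 and 1096 CPM (counts scaled to library depth) in MUT and to 915 and 896 CPM in WT testes, and 6 Sertoli markers to 326 and 320.3 CPM in MUT and to 320.2 and 319 CPM in WT testes. The libraries are therefore described as a mixture of testis cells. Whether germ cells were enriched in them was not tested.

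The proteasome is the main protease of the cytosol and nucleus. Its core is a barrel of alpha and beta rings whose proteolytic sites face inward, and a regulatory cap recognises ubiquitin-tagged proteins, unfolds them and feeds them into the barrel. Germ cells are known for variants of this machine: in the mouse, Psma8 takes the place of the alpha subunit Psma7 from meiosis onward and is needed for male fertility, and Psme4 (PA200) is an activator tied to the degradation of acetylated histones when spermatids condense their chromatin. Immune cells and cells exposed to interferon instead carry Psmb8, Psmb9 and Psmb10 in place of the catalytic subunits Psmb5, Psmb6 and Psmb7.

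The libraries held 48409785 and 40426400 reads in MUT, and 68192776 and 50162558 reads in WT. The members together took 0.522% and 0.519% of the reads in MUT, against 0.518% and 0.513% in WT. In CPM, the scale used below, they summed to 5179 and 5127 in MUT and to 5244 and 5169 in WT. Both MUT libraries were thus higher by read share, while the CPM sums overlapped. Lrrc8a itself had 13.5 and 15.9 CPM in MUT testes, with 18.2 and 17.1 CPM in WT testes (log2 fold change -0.26, SE 0.0998, limma adjusted p = 0.218). Both MUT libraries lay below both WT libraries, as in 22.6% of all tested genes, but the difference did not pass the threshold used. Where in Lrrc8a the mutation lies is not stated.

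No proteasome gene was called different between the genotypes in the test over all genes. Of the 48 members, 46 passed the filter on low values (at least 1 CPM in at least 2 libraries) and 0 of these were called at a limma adjusted p under 0.05, where 0.749% of all 15364 tested genes were called (0.482% higher and 0.267% lower in MUT). At an unadjusted p under 0.05 the count was 1 of 46, against 14.7% of all tested genes. DESeq2 and edgeR on the reads recovered from the CPM also called 0 members. The members' log2 fold changes, MUT minus WT on the log2(CPM + 0.5) scale, ran from -0.16 to 0.22 with a median of -0.0002, beside a median of -0.0016 over all tested genes. The median size of the log2 fold change was 0.0531 for the members and 0.0934 for all tested genes. The median SE was also smaller for the members, at 0.0745 against 0.0948, so these sizes are not compared at equal precision. On this scale the 95% interval of the difference stayed within 1.5-fold in either direction for all 46 tested members, and Psmb11 had the widest. For Psmb11, a low gene, this bound depends on the amount added to the CPM. Its log2 fold change was 0.22 with 0.5 added, 0.28 with 0.1 added and 0.30 in edgeR on the recovered reads. In a mixture of cells, fewer cells of a type and less RNA per cell cannot be told apart. CPM are relative within a library, so these values say nothing of total RNA. The CPM as given summed to 992486.9 and 987722.6 in MUT and to 1011463.1 and 1008533.2 in WT. They are therefore not plain shares of the reads, and their scaling differs slightly between the genotypes.

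The sequence before the start site is shown for Psme4, an activator known from spermatids, for Psmd8, the member with the smallest p, and for Ubb, a ubiquitin gene that was called, so that their levels can be set beside their promoters. The bases are from RefSeq on GRCm38.p6, 5′ to 3′ on the gene's strand, and end before the annotated GENCODE gene. Capitals mark GGGCGG (GC box), CCGGAAG (ETS), CCAAT, TGACNNNGC (the core of the antioxidant response element, bound by the factors of the Nfe2l family) or GAANNTTC (the core of the heat shock element) on either strand, which may overlap each other. Psme4 is shown at chr11:30771525-30771725 (+), Psmd8 at chr7:29180702-29180923 (-) and Ubb at chr11:62550921-62551170 (+).
Psme4: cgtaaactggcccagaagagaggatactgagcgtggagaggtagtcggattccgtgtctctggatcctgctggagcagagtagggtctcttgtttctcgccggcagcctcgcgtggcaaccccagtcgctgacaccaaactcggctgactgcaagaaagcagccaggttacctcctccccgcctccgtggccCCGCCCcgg
Psmd8: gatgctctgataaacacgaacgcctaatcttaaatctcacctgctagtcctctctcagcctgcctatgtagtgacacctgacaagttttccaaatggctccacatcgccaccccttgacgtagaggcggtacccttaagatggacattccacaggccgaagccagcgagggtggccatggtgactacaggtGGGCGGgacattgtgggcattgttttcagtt
Ubb: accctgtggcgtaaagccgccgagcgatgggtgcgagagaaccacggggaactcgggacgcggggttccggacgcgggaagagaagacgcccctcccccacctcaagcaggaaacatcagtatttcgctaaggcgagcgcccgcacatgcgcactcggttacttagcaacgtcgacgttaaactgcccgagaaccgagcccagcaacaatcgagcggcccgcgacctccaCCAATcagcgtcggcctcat
Within these stretches, Psme4 and Psmd8 each hold 1 GC box, and Ubb holds 1 CCAAT. Over the 250 bases before the RefSeq start, windows were at hand for 40 members. The ETS letters were in 12 of these 40 members (30.0%), against 7.83% of all 27025 genes with a window. The GC box was in 22 (55.0%), against 35.4% of all genes, and CCAAT in 14 (35%), against 37.5%. The antioxidant response core was in 5 (12.5%), against 11.5% of all genes, namely Psmb5, Psmb6, Psmc6, Psmd9 and Psmd12. The heat shock core was in 3 (7.50%), against 7.73%. The RefSeq window of Psme4 also holds the ETS letters, which run past the end of the printed stretch, and another window of Ubb, at a start not shown, holds the GC box, the ETS letters and the antioxidant response core. These are matches of letters and not binding sites.

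The levels within the alpha ring were uneven. Levels of different genes are compared as CPM per kb of the longest annotated transcript, averaged over the 4 libraries. Psma6 was the most abundant constitutive alpha subunit at 307 CPM per kb, higher than 98.9% of tested genes, and Psma2 the least at 10.2 CPM per kb, a 30.0-fold range inside a ring that holds each subunit once. The longest annotated transcript of a gene may keep introns that the testis mRNA lacks. Per kb of coding sequence the 14 constitutive core subunits still ranged 12.8-fold, between 33.9 for Psma7 and 433 for Psma6, with a median of 60.7 CPM per coding kb. Psma6 was at 314 and 313 CPM in MUT, against 326 and 326 CPM in WT testes. Psma2 was at 31.8 and 31.0 CPM in MUT, against 28.4 and 28.1 CPM in WT testes (log2 fold change 0.15, SE 0.0807, limma adjusted p = 0.396). The MUT libraries lay below the WT libraries for Psma6 and above them for Psma2, by amounts that did not pass the test.

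Psma8, the germ cell paralog, was more abundant than Psma7, the subunit whose place it takes. Psma8 lies on chromosome 18 from 14706151 to 14762301 and Psma7 on chromosome 2 from 180036374 to 180042433 (GRCm38, the build called mm10). Psma8 had 104 and 99.5 CPM in MUT testes, with 89.9 and 97.7 CPM in WT testes. Psma7 had 25.1 and 24.7 CPM in MUT testes, with 27.0 and 24.1 CPM in WT testes. Both MUT libraries were above both WT libraries for Psma8, while the libraries overlapped for Psma7. Per kb, Psma8 was 2.64 to 3.28 times as high as Psma7 in each library. Its share of the pair was 76.4% ± 0.416 in MUT and 74.4% ± 2.64 in WT (SD, n = 2 each; exact permutation p = 0.667, two-sided, where 2 against 2 libraries cannot give less than 0.33). Of the 4 libraries, WT 1 had the lowest share at 72.5%. The mean difference of Psma8 itself was a log2 fold change of 0.12 (SE 0.0703, 95% interval -0.03 to 0.27, limma adjusted p = 0.45). The log2 fold change of Psma8 was 0.06 without WT 1 and 0.18 without WT 2. The summed level of 8 spermatocyte markers was 1455 and 1404 CPM in MUT testes and 1344 and 1460.4 CPM in WT testes, lowest in the same library as Psma8. Their part in the Psma8 values was not tested.

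**Figure D1:**
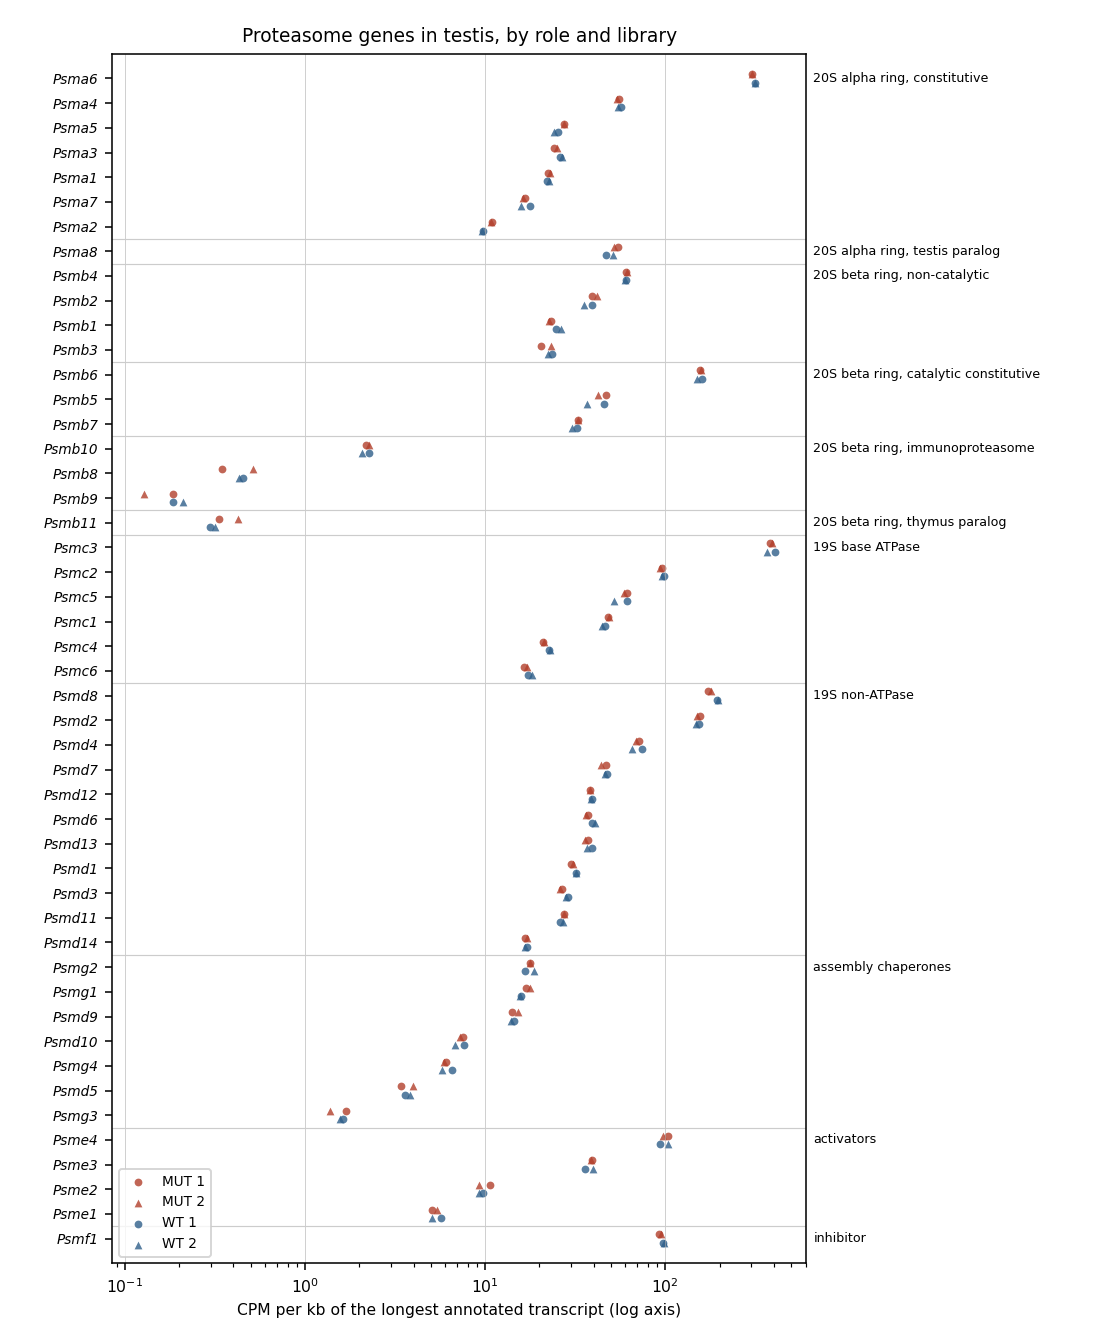
Level of each of the 48 proteasome genes in each library, as CPM per kb of the longest annotated transcript on a log axis, grouped by role, with MUT (red) drawn above WT (blue) and circles and triangles for libraries 1 and 2. Psmc3 at 386 and Psma6 at 307 CPM per kb lie at the top, and Psmb8, Psmb9 and Psmb11 lie at the bottom.

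The beta ring carries the proteolytic sites, and its constitutive catalytic subunits were far above their immunoproteasome counterparts. Psmb6, with the caspase-like site, had 151 and 151 CPM in MUT testes, with 153 and 145 CPM in WT testes. Psmb7, with the trypsin-like site, had 93.3 and 93.2 CPM in MUT testes, with 92.0 and 86.4 CPM in WT testes. Psmb5, with the chymotrypsin-like site, had 42.2 and 37.8 CPM in MUT testes, with 41.3 and 33.2 CPM in WT testes. Relative to its mean, Psmb5 was the most scattered of these in the WT libraries. None was called, with limma adjusted p of 0.915, 0.715 and 0.646 in that order.

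The immunoproteasome subunits rested on few reads. Psmb8 had 0.656 and 0.977 CPM in MUT testes, with 0.860 and 0.824 CPM in WT testes, which rests on 32 and 40 reads in MUT and on 58 and 41 reads in WT. Psmb9 had 0.533 and 0.366 CPM in MUT testes, with 0.534 and 0.603 CPM in WT testes, from 26 and 15 reads in MUT and from 36 and 30 reads in WT. These 2 genes failed the filter. Fitted without it, their log2 fold changes were -0.04 (SE 0.151) for Psmb8 and -0.17 (SE 0.128) for Psmb9, with limma adjusted p of 0.937 and 0.639. Psmb10 was higher, with 2.87 and 2.96 CPM in MUT testes and with 2.98 and 2.71 CPM in WT testes. The immunoproteasome share of each pair, per kb, was 0.966% ± 0.337 in MUT and 1.06% ± 0.130 in WT for Psmb8 with Psmb5. It was 0.0997% ± 0.0264 in MUT and 0.128% ± 0.0162 in WT for Psmb9 with Psmb6, and 6.36% ± 0.130 in MUT and 6.48% ± 0.131 in WT for Psmb10 with Psmb7 (SD, n = 2 each). The genotypes overlapped in all 3 pairs, and the exact permutation p was 1, 0.667 and 0.667, two-sided, in that order. Psmb9 shares 212 exon bases with Tap1 on the opposite strand, so its few reads are uncertain if the counting ignored strand, a setting the labels do not state. Macrophage markers were present, with 9 of them summing to 106 and 114 CPM in MUT and to 108 and 98.0 CPM in WT testes, of which 0 were called. The 6 lymphocyte markers summed to 3.92 and 3.88 CPM in MUT and to 4.95 and 4.54 CPM in WT testes, and among them the T cell genes Cd3e and Cd3g were at 0.252 CPM or less in every library. How far these cells supply the Psmb8, Psmb9 and Psmb10 reads was not tested. Among markers of other cells, Cyp17a1 of the 6 Leydig markers was called higher in MUT (log2 fold change 0.28, limma adjusted p = 0.0361). Kit of 6 spermatogonia markers was also called higher (log2 fold change 0.46, limma adjusted p = 0.0329). In each of these lists 0 were called lower.

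Psmb11, the catalytic subunit of thymic cortical epithelium, was detected at 1.41 and 1.81 CPM in MUT testes and at 1.26 and 1.35 CPM in WT testes. Its log2 fold change was 0.22, with the largest SE of the tested members, 0.172 (limma adjusted p = 0.585). The log2 fold change of Psmb11 was 0.36 without MUT 1 and 0.09 without MUT 2. Its annotated span on chromosome 14, from 54621433 to 54629556, begins just beyond Psmb5, which ends at 54618022. Among the non-catalytic beta subunits, Psmb1 had the smallest p, with 45.6 and 44.6 CPM in MUT testes and with 48.8 and 51.8 CPM in WT testes (log2 fold change -0.16, SE 0.0754, limma adjusted p = 0.347). Psmb4 was the most abundant of these 4 at 60.4 CPM per kb, and had 71.6 and 72.2 CPM in MUT testes and 71.2 and 71.0 CPM in WT testes.

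**Figure D2:**
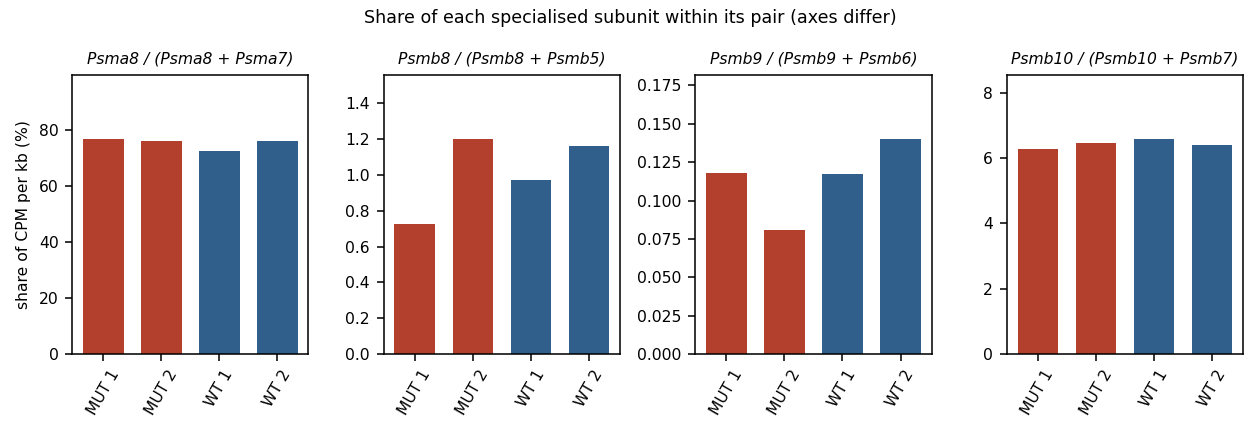
Share of Psma8, Psmb8, Psmb9 and Psmb10 in the sum with the constitutive subunit each replaces, in percent of CPM per kb, for each library (MUT red, WT blue, axes differ between panels and start at 0). Psma8 takes 72.5% to 76.7% of its pair, and the immunoproteasome subunits take at most 6.58%.

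Most 19S cap genes had a slightly lower mean in MUT. Of 17 cap genes, 13 had a log2 fold change below 0 and 4 above, with a median of -0.0373, whereas 8 of the 14 constitutive core subunits were above 0 and 6 below. Over all tested genes, 7616 were above 0 and 7748 below. Among the cap genes counted below 0, Psmc3, Psmd4 and Psmd14 were at -0.00010, -0.00170 and -0.00040. None of the cap and core genes was called. Without WT 1 the cap genes divided into 8 above and 9 below 0, and without WT 2 into 2 and 15, so the split of the cap genes depends on which WT library is used. Without WT 2 the core subunits divided into 6 above and 8 below. With all libraries, the cap split was 6 above and 11 below after quantile normalization or the GC and length correction. With scaling without the 100 most abundant symbols it was 7 above and 10 below, where the median of all tested genes was 0.0198. The 17 cap genes were taken by symbol, so Adrm1, a ubiquitin receptor of the cap, is not counted (log2 fold change -0.14). The difference between cap and core was not tested.

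Psmd8, a lid subunit, had the smallest p of the members, and its interval excluded 0 before adjustment. It was at 343 and 352 CPM in MUT, against 385 and 388 CPM in WT testes. The MUT libraries were below the WT libraries, by a fold of 0.898 (95% interval 0.824 to 0.979; log2 fold change -0.15, SE 0.0594). The unadjusted limma p was 0.0176 and the limma adjusted p was 0.227, and over 18 alternative settings the adjusted p lay between 0.143 and 0.727. Psmd6, another lid subunit, had 51.4 and 50 CPM in MUT testes, with 54.4 and 56.5 CPM in WT testes (limma adjusted p = 0.437). Psmd3, also of the lid, had 77.5 and 75.6 CPM in MUT testes, with 83.1 and 81.2 CPM in WT testes (limma adjusted p = 0.521).

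Among the ATPases of the cap, which unfold the substrate, Psmc3 was the most abundant proteasome gene of all at 386 CPM per kb, higher than 99.2% of tested genes. It had 696 and 708 CPM in MUT testes, with 738 and 668 CPM in WT testes, with WT on either side of MUT. Psmc4 had the smallest p of the ATPases, with 39.4 and 39.9 CPM in MUT testes and with 42.6 and 42.9 CPM in WT testes (limma adjusted p = 0.546). The other ATPases Psmc1, Psmc2, Psmc5 and Psmc6 had log2 fold changes between -0.08 and 0.09. Psmd2, the scaffold that docks ubiquitin carriers, had 468 and 448 CPM in MUT testes, with 461 and 444 CPM in WT testes. Psmd4, a ubiquitin receptor, had 151 and 145 CPM in MUT testes, with 157 and 139 CPM in WT testes. Psmd14, the deubiquitinase of the lid, was the least abundant cap gene at 16.8 CPM per kb, and had 25.7 and 26.2 CPM in MUT testes and 26.1 and 25.7 CPM in WT testes. The genotypes overlapped for Psmd2, Psmd4 and Psmd14. The remaining non-ATPase genes Psmd1, Psmd7, Psmd11, Psmd12 and Psmd13 had log2 fold changes between -0.07 and 0.04.

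The activators bind the ends of the barrel in place of the cap, and Psme4 was the highest of them in CPM and per kb of the longest transcript, while per coding kb Psme3 was higher (134 for Psme3 and 116 for Psme4). Psme4 lies on chromosome 11 from 30771726 to 30880361. It had 671 and 629.6 CPM in MUT testes, with 608 and 667 CPM in WT testes, and the groups overlapped (650.2 ± 29.1 CPM in MUT testes and 637 ± 41.6 CPM in WT testes, SD, n = 2 each). Its log2 fold change was 0.03 (SE 0.0631, limma adjusted p = 0.878) with an interval from -0.10 to 0.16. Per kb it stood at 99.2, above 94.4% of tested genes. Psme3, the nuclear activator PA28 gamma, had 104 and 103 CPM in MUT testes, with 95.3 and 105 CPM in WT testes. The interferon-inducible activators were lower: Psme1 had 10 and 10.7 CPM in MUT testes, with 11.2 and 10.1 CPM in WT testes. Psme2 had 10.2 and 8.89 CPM in MUT testes, with 9.33 and 8.89 CPM in WT testes. For each of the 4 activators the MUT and WT libraries overlapped. Psmf1 (PI31), which inhibits the core in vitro, was abundant, with 352 and 358 CPM in MUT testes and 368 and 375 CPM in WT testes (log2 fold change -0.06, SE 0.0593, limma adjusted p = 0.659).

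The assembly chaperones were the least abundant role apart from the immunoproteasome and thymic subunits, with a median of 7.29 CPM per kb. Psmg1, which pairs with Psmg2 to build the alpha ring, had 17.6 and 18.5 CPM in MUT testes, with 16.4 and 16.2 CPM in WT testes (log2 fold change 0.14, SE 0.0910, limma adjusted p = 0.489). Psmg2 was the highest of them per kb of the longest transcript, at 17.7 CPM per kb, while per coding kb Psmd9 was higher (56.9 for Psmd9 and 29.1 for Psmg2). Psmg2 had 23.1 and 23 CPM in MUT testes and 21.8 and 24.3 CPM in WT testes. Psmg3 and Psmg4, the other alpha ring chaperones, were between 3.20 and 4.04 CPM in all libraries. Psmd5, Psmd9 and Psmd10 (gankyrin), which assist the ATPase ring, had log2 fold changes of -0.01, 0.05 and 0.04. Psmd5 lies on chromosome 2 within 4.59 Mb of the end of Lrrc8a and Psmb7 within 8.32 Mb, and neither was called.

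**Figure D3:**
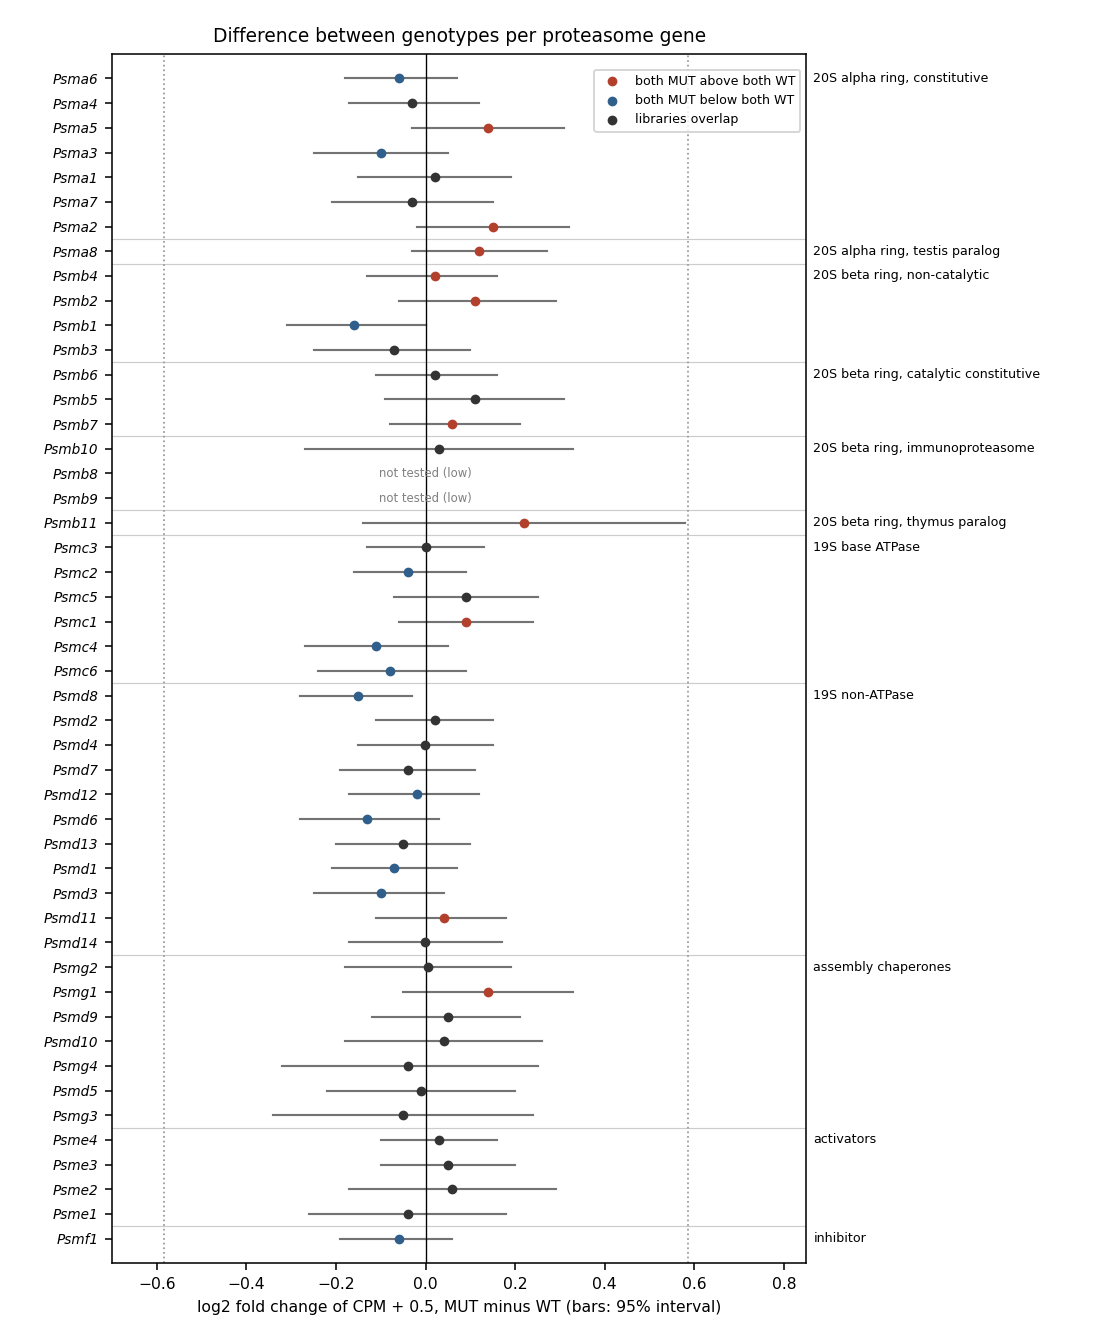
Log2 fold change of CPM + 0.5, MUT minus WT, for each of the 46 tested members with its 95% interval, grouped by role, with dotted lines at 1.5-fold. Red points have both MUT libraries above both WT libraries, blue points have both below, dark points overlap. All point estimates lie between -0.16 and 0.22, and Psmd8 has an interval that leaves out 0.

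The MUT and WT libraries did not overlap for 22 of the 46 tested members, 10 with MUT higher and 12 with MUT lower. This is 47.8%, near the 45.6% of all tested genes whose libraries did not overlap (23% with MUT higher and 22.6% with MUT lower), so the separation of libraries is not a result about the members.

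Copies elsewhere in the genome limit some of these levels. Reads cannot be placed uniquely where another gene holds the same sequence, and the labels do not say how such reads were treated. The longest coding sequence of 9 of the 48 members had stretches of at least 100 bases with at least 95% identity in another annotated gene: Psma3, Psma4, Psma5, Psmb3, Psmb5, Psmc1, Psmd2, Psmd11 and Psme2. These copies covered at least 99.2% of the coding sequence in each of the 9. A total of 13 members share exon bases with another annotated gene, 11 of them with a gene on the opposite strand, among them Psmb7 with Nek6, Psmc3 with Slc39a13 and Psmd13 with Sirt3. Members with a copy had a median of 56.4 CPM per coding kb and the other 39 a median of 49.9. Those 39 include every immunoproteasome, thymic and assembly chaperone gene, so the medians compare different roles. The effect of the copies on the counts was not tested. For Psmd11 the copy A730017L22Rik was listed at 7.44 and 6.89 CPM in MUT testes and at 8.02 and 9.77 CPM in WT testes, against 77.5 to 81.0 CPM for Psmd11. Psme2b, the copy of Psme2, was listed at 0.171 CPM or less.

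The other genes of the ubiquitin pathway gave a single call. Lists for this pathway were compiled for proteasome-associated factors, ubiquitin and its E1 enzymes, VCP, regulators of proteasome transcription and class I antigen processing. Of 19 associated factors, 0 were called, with Adrm1, a ubiquitin receptor of the cap, at a mean of 136 CPM in MUT and of 149.9 CPM in WT testes (log2 fold change -0.14, limma adjusted p = 0.336) and Akirin2, which escorts proteasomes into the nucleus, at a mean of 113 CPM in MUT and of 124 CPM in WT testes (limma adjusted p = 0.373). Of 8 genes of VCP, the unfolding ATPase that hands substrates to the proteasome, and its cofactors, 0 were called, with Faf1 at -0.12 and Nsfl1c at 0.12 on the log2 scale. Of 9 tested regulators, 0 were called. Ddi2, the protease that activates the transcription factor encoded by Nfe2l1, was at a mean of 8.32 CPM in MUT and of 6.90 CPM in WT testes (limma adjusted p = 0.317). Mafg, a small Maf partner of that factor, was at 4.80 ± 1.71 CPM in MUT testes and 3.67 ± 0.0735 CPM in WT testes (limma adjusted p = 0.416). Of 11 antigen processing genes, 0 were called. The median log2 fold change was -0.0324 for the associated factors, -0.0243 for VCP and its cofactors, 0.0223 for the regulators and 0.0371 for antigen processing, beside -0.0016 for all tested genes. The peptide transporter gene Tap1, a neighbour of Psmb9 on chromosome 17, had a log2 fold change of 0.31 (limma adjusted p = 0.380), and the class I gene H2-D1 one of 0.26 (limma adjusted p = 0.355).

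Of 9 genes for ubiquitin, its E1 enzymes and its hydrolases, 1 was called higher and 0 lower. Ubb, a polyubiquitin gene, rose to 479 and 507 CPM in MUT, against 369.9 and 330.5 CPM in WT testes (log2 fold change 0.49, SE 0.0658, limma adjusted p = 0.000616). Uchl1, a ubiquitin hydrolase, averaged 30.6 CPM in MUT testes and 35.5 CPM in WT testes (log2 fold change -0.21, limma adjusted p = 0.287). The Ubb value is uncertain, since the pseudogene locus Gm1821 matched the whole Ubb coding sequence at 95% identity or more and was itself listed at 399.7 and 528 CPM in MUT testes and at 520.0 and 524 CPM in WT testes. The sum of Ubb and Gm1821 was 878 and 1035 CPM in MUT testes and 889.9 and 854 CPM in WT testes, so that the genotypes overlapped (957 ± 111 CPM in MUT testes and 872 ± 25.1 CPM in WT testes, SD, n = 2 each; exact permutation p = 0.667, two-sided). The same exact test gave p = 0.33 for Ubb alone, the least that 2 against 2 libraries can give. The exact p of the sum is therefore not comparable with the limma adjusted p of Ubb. Over 18 alternative settings Ubb was called in 16, with log2 fold changes from 0.41 to 0.58. The call of Ubb was lost without the filter on low values (limma adjusted p = 0.0825) and without the variance trend (0.176). Calls over all tested genes also fell there, from 74 higher and 41 lower to 7 and 4 without the filter. Without the trend they fell to 5 and 2.

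**Figure D4:**
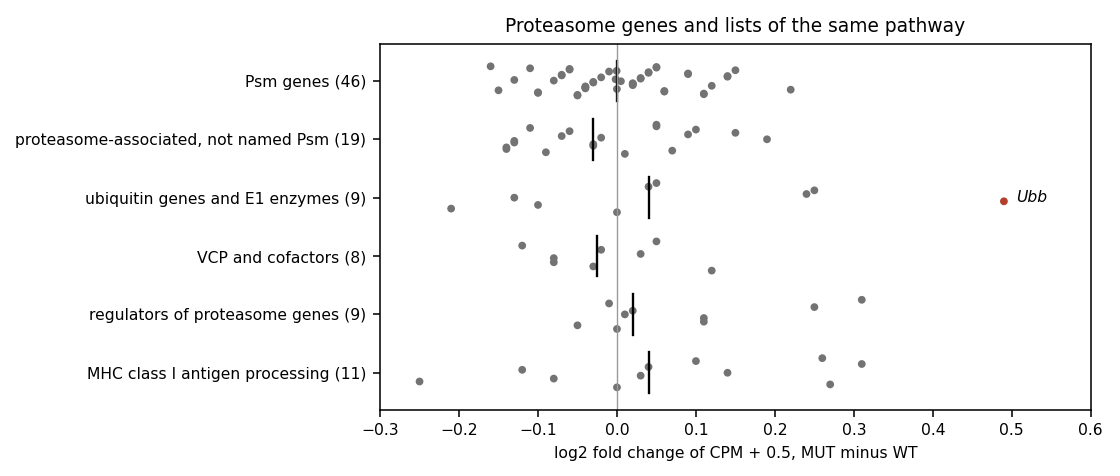
Log2 fold change of CPM + 0.5, MUT minus WT, for the tested proteasome genes and for each list of the same pathway, with the number of genes in parentheses and a vertical bar at the median. Grey points were not called. Ubb at 0.49, in red, is the called gene among those drawn.

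**Figure D5:**
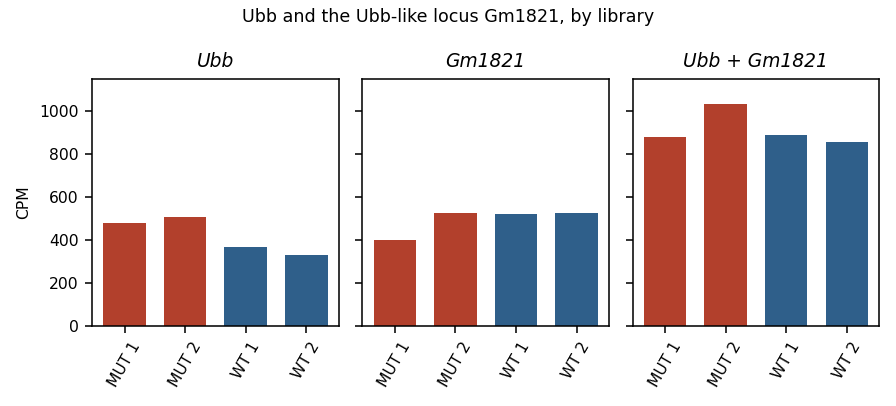
CPM in each library for Ubb, for the Ubb-like locus Gm1821 and for their sum, with MUT in red, WT in blue and a shared axis that starts at 0. Ubb separates the genotypes, the sum of Ubb and Gm1821 (878 and 1035 CPM in MUT, 889.9 and 854 CPM in WT testes) does not.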

How the data were processed

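Testis RNA was sequenced in 4 libraries. Per the labels' protocols, Trizol extraction was used with DNase I, and a TruSeq stranded mRNA kit for the libraries. The submitters' processing notes name TopHat2 2.0.10, HTSeq 0.6.0, edgeR 3.8.6 and mm10, without roles. The values are CPM of each symbol in each library, as deposited. All values (100%) lay within 0.001 of a whole multiple of 1 read, which recovered the read counts. A floor of 3 reads equals 0.0445 to 0.0733 CPM and covers counting error only.

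The test used symbols reaching 1 CPM in 2 or more libraries and the scale log2(CPM + 0.5), in limma 3.58.1 under R 4.3.3 (lmFit, eBayes with a mean-variance trend, two-sided, Benjamini-Hochberg over 15364 genes, called under 0.05). Fold changes on this scale understate the change of low genes. As alternatives, the recovered reads went through edgeR 4.0.16 and DESeq2 1.42.0. Reads were simulated for MUT against WT with 200 changed genes among 15360 tested. There limma called 30% of the genes set to differ 1.2-fold, 96% at 1.5-fold and 100% at 2-fold. The changed genes were drawn from those with a mean above 5 CPM, and the spread of each gene followed the trend alone. These rates do not cover the lower members Psmb10, Psmb11, Psmg3 and Psmg4, and may be too high for the others.

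Positions and lengths came from GENCODE vM21, matching all 48 members. Copies were searched with BLAST 2.17.0. The members, lists and tests were chosen with earlier results of these data known. Values per library were given for the paralog pairs, activators, Psmf1 and, in each role, the member with the smallest p and the highest level per kb. Of each pathway list, called genes and up to 2 with the smallest p were named, and 1 such gene is not reported here. Per-library values of Psmd2, Psmd3, Psmd4, Psmd6 and Psmd14, and Gm1821, were chosen after their values were seen.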

Additional observations from a re-analysis of the deposited data

How the results depend on the processing

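Over 18 alternative settings 0 proteasome members were called, and their lowest adjusted p was 0.143 (Psmd8). The crossed pairing of replicate numbers, the coding length and the block with the GC and length correction were chosen after seeing the data. Against 74 higher and 41 lower genes over all tested genes, dropping the low-value filter gave 7 and 4, quantile normalization 35 and 18, and no variance trend 5 and 2. Scaling without the 100 most abundant symbols gave 113 and 37, DESeq2 86 and 71, and leaving out single libraries 71 to 115 and 43 to 165. Both highest counts came without WT 1, and without MUT 2 the counts were 105 and 89. The lone library is then assumed to vary like the other genotype. The replicate numbers are not stated to pair the libraries (correlation of deviations -0.134). With the replicate block the counts were 57 and 31, with the block and the GC and length correction 27 and 16, and with the crossed pairing 131 and 104. The cause was not tested.

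The members' median log2 fold change of -0.0002 moved to 0.0218 with scaling without the 100 most abundant symbols, where the median of all genes was 0.0198, and lay between -0.0331 (without WT 2) and 0.0105 (without WT 1) with libraries left out. Of 1002 gene values under alternatives, 52 changed sign, 11 of them by more than the SE, all uncalled: Psmb3 (0.02) and Psmd5 (0.09) without MUT 1, Psmb5 (-0.05) and Psmc5 (-0.02) without WT 2, Psmc3 (0.07) and Psmd4 (0.09) without WT 1, Psmc3 (0.07) after quantile normalization, Mafg (-0.03) without MUT 1, and Psme4 (-0.04) without WT 1, with the GC and length correction, and with that correction and the block. With single libraries left out, the log2 fold change ranged from -0.16 to 0.02 for Psmb3, -0.05 to 0.26 for Psmb5, -0.07 to 0.07 for Psmc3, -0.02 to 0.20 for Psmc5, -0.09 to 0.09 for Psmd4, -0.12 to 0.09 for Psmd5, -0.04 to 0.10 for Psme4, 0.06 to 0.18 for Psma8, 0.09 to 0.36 for Psmb11, 0.05 to 0.20 for Nsfl1c and 0.06 to 0.46 for H2-D1. Mafg was called without MUT 2 (0.64, adjusted p = 0.0201).

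Paralog shares moved with the length used, by construction. Over the union of exons and the coding length, Psma8 took 83.4% and 80.2% in MUT and 81.9% and 78.5% in WT. Psmb8 took 0.547% and 1.94% in MUT and 0.603% and 2.14% in WT, Psmb9 0.152% and 0.323% in MUT and 0.195% and 0.414% in WT, and Psmb10 5.90% and 3.07% in MUT and 6.02% and 3.14% in WT. The planned length from RefSeq proteins was not run. For Psmb8 and Psmb9 depth limits what can be seen.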
